A study of Saccharomyces cerevisiae with 18 samples.

Results

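Hot1 peaks without a stressed Sko1 peak were regions of the yeast genome in which a ChIP-seq peak was listed for the transcription factor Hot1 after osmotic shock, but none for the transcription factor Sko1. They were chosen by the positions of the peaks in 2 lists, as the Hot1 peaks of at least 100 bp that share no base with any peak of the Sko1 list from cells in osmotic shock. Of 12548 deposited Hot1 peaks, 4935 were at least 100 bp wide, and 1186 of these (24.0%) had no Sko1 peak on any of their bases. The other 3749 wide Hot1 peaks, which share at least 1 base with a stressed Sko1 peak, are called shared peaks here. Positions are on the sacCer2 assembly, as the submitters' notes give it, and both ends of a peak are counted as part of it.

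Hot1 and Sko1 are DNA-binding transcription factors of the high osmolarity glycerol (HOG) pathway of budding yeast. A rise in external osmolarity activates the MAP kinase Hog1, which moves into the nucleus and is brought to its target genes by factors such as these. Sko1 is a bZIP factor that acts with a corepressor before stress and turns into an activator when Hog1 phosphorylates it, whereas Hot1 is best known for the activation of genes of glycerol synthesis and uptake.

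The libraries that bear on these regions are each a single ChIP-seq library of W303 cells. Hot1 carried 3 HA epitopes at its own locus (HOT1-3HA with a HIS3 marker) and was precipitated after 5 min in 0.4 M KCl, and 3HA-Sko1, also at its own locus, was precipitated after the same treatment and, in a further library, after mock treatment with an equal volume of YEPD, all in otherwise wild-type cells. The antibody was 12CA5, against HA. The supplement notes that strains with tagged Hot1 had expression defects at some Hot1-regulated genes, and Hot1 peaks of mock-treated cells were not analysed here. Tagged Hot1 and tagged Sko1 came from different strains, so that strain and factor cannot be told apart. With 1 library per condition no value below has a replicate error, and no test was made. The supplement gives a range of reads for the Hog1 and transcription factor libraries together but no total per library, so that the depth of one list relative to another is not known.

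The lists differed in size and in the height a peak had to reach. The stressed Sko1 list held 12149 peaks and the mock-treated Sko1 list 7215. The threshold, taken here as the height at which the caller opened a peak, had a median of 101 in the Hot1 list, 119 in the stressed Sko1 list and 75 in the mock-treated Sko1 list. It was set per 100 kb stretch of a chromosome: only 11 of 12548 Hot1 peaks and 5 of 12149 stressed Sko1 peaks departed from the commonest value of their stretch. A region without a Sko1 peak is therefore one in which Sko1 signal stayed under the threshold of its stretch, which does not show that Sko1 was absent.

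The regions without Sko1 were low and narrow peaks of the Hot1 list. Their height, taken as the number of overlapping extended tags, ran from 87 to 272 with a median of 122, while shared peaks ran from 58 to 10156 with a median of 131. Divided by the threshold of the stretch, height had a median of 1.20 (range 1.03 to 2.55) in the regions without Sko1 and of 1.29 (range 1.02 to 46.6) in shared peaks. Of the regions without Sko1, 28 of 1186 (2.36%) stood at least 1.5 times above the threshold, against 17.2% of all 4935 wide Hot1 peaks and 822 of 3749 shared peaks (21.9%). Their width had a median of 139.5 bp, with quartiles of 115 and 185 bp, and that of shared peaks a median of 204 bp with quartiles of 142 and 321 bp. Together the 1186 regions covered 198 kb and the shared peaks 1080 kb. These values come from the list that the choice was made on, and they describe it.

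Enrichment, the deposited ratio of precipitated to input reads, separated the groups less than height did. The median was 1.43 (range 0.869 to 11.8) without Sko1 and 1.47 (range 0.635 to 16.4) in shared peaks. An enrichment of at least 2 was reached by 118 of the 1186 regions (9.95%), by 660 of 3749 shared peaks (17.6%) and by 15.8% of all wide Hot1 peaks. The Hot1 list had higher enrichments along the whole of chromosome 7, where the median was 2.07 in the 115 regions without Sko1 and 2.03 in 307 shared peaks. On the other 15 nuclear chromosomes the median of the regions without Sko1 was between 1.33 and 1.44. Over all peaks of a list, whatever their width, the chromosome 7 median was 1.98 for Hot1, with 1.34 to 1.42 on the other nuclear chromosomes, but 1.31 for stressed Sko1, with 1.32 to 1.41. Chromosome 7 supplied 64 of the 118 regions that reached 2, and on the other nuclear chromosomes 54 of 1071 (5.04%) did, beside 482 of 3410 shared peaks (14.1%). What raised the ratio on chromosome 7 was not tested. An enrichment under 1, which is more input than precipitate on the scale of the list, was listed for 18 regions without Sko1 (1.52%) and 87 shared peaks (2.32%). The deposited p-value of the caller was under 0.05 in 982 of the 1186 regions (82.8%), beside 85.8% of all wide Hot1 peaks.

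**Figure D1:**
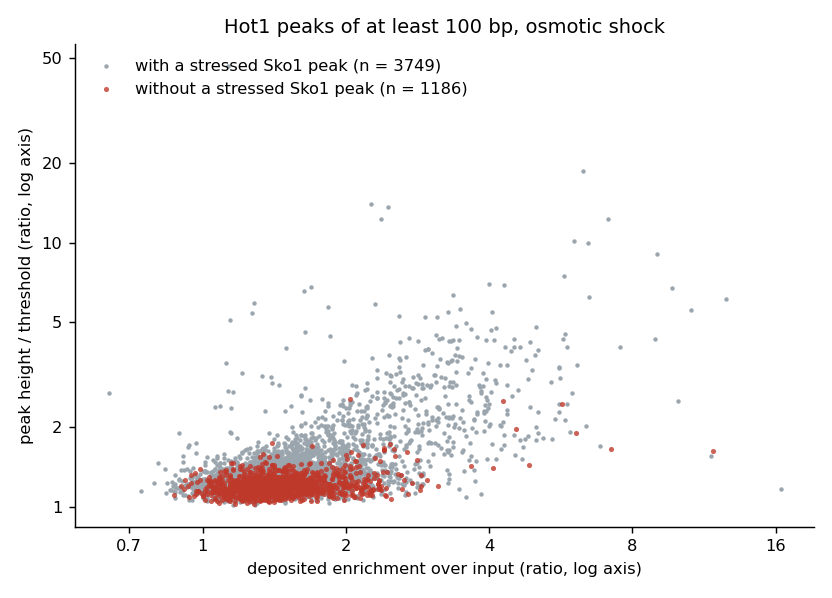
Each point is a Hot1 peak of at least 100 bp, with its deposited enrichment over input on the x axis and its height divided by its threshold on the y axis (both ratios, log axes), red without and grey with a stressed Sko1 peak. The 1186 red points lie between 1.03 and 2.55 in height over threshold, and the upper part of the plot, up to 46.6, is held by shared peaks.

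The share of Hot1 peaks without Sko1 fell with height and with width. When the 4935 wide peaks were split into 5 classes of equal number by height, 335 of 987 (33.9%) had no stressed Sko1 peak in the lowest class, 281 of 987 (28.5%) in the middle one and 58 of 987 (5.88%) in the highest. None of the 100 highest peaks was without Sko1, and 9 of the 506 highest were, where ties set the number. Among peaks of 100 to 149 bp, 674 of 1769 (38.1%) had none, and among those of at least 300 bp, 64 of 1121 (5.71%). Of the 7613 Hot1 peaks under 100 bp, which the rule leaves out, 4948 (65.0%) had none, so the 24.0% belongs to the chosen width limit. A wide interval has more bases on which another peak can fall, so part of the order by width is built into the rule. Within the class of 100 to 149 bp, median height was 121 without Sko1 and 122 in shared peaks and median enrichment 1.43 and 1.39. From 300 bp on, median height was 135 and 149 and median enrichment 1.54 and 1.58. The difference in height was thus small in narrow peaks and larger in wide ones.

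By enrichment, 8 of the regions without Sko1 were among the 101 wide Hot1 peaks of highest rank (rank 100 was tied), which is 7.92%, and 51 were among the first 501. With chromosome 7 left out, 7 of the 100 most enriched peaks had no stressed Sko1 peak. The 8 lay at 6 loci. On chromosome 13, chr13:609088-609229 had the highest enrichment of all regions without Sko1, 11.8 at a height of 178 (threshold 109), the third of all wide Hot1 peaks. Another 2 regions without Sko1 followed it, chr13:609497-609623 with a height of 167 and an enrichment of 2.30 and chr13:609718-609960 with a height of 179 and an enrichment of 2.40. This row of 3 was framed by 2 shared peaks, at chr13:608706-609013 (height 161, enrichment 1.61) and chr13:610037-610304 (height 176, enrichment 2.03). The Sko1 peaks under the framing peaks reached 153 and 164 at a Sko1 threshold of 124. The heights of Hot1 along the 5 peaks differed little, from 161 to 179, while enrichment ran from 1.61 to 11.8. The high rank of chr13:609088-609229 was thus one of the ratio to input and not of height, and what raised the ratio was not tested.

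On chromosome 1, the neighbouring regions chr1:140079-140212 (height 264, enrichment 5.68) and chr1:140388-140501 (height 205, enrichment 6.08) were also framed by shared peaks. These shared peaks were higher than the regions between them, with 518 at chr1:139437-139802 and 427 at chr1:141112-141444. A further Hot1 peak without Sko1 at this locus, chr1:140586-140681, had a height of 180 and an enrichment of 7.68 and is left out by the rule because it is 96 bp wide. The nearest stressed Sko1 peak to chr1:140079-140212 was 311 bp away and 262 high (threshold 122).

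On chromosome 4 the highest of all regions without Sko1, chr4:536123-536270 with a height of 272 and an enrichment of 4.28, stood beside chr4:535443-535563 with a height of 213 and an enrichment of 4.55. Apart from this neighbour, no peak of any list, Hot1 or Sko1, reached within 1500 bp of the centre of the higher one. The nearest stressed Sko1 peak was 1936 bp from it and had a height of 233 at a threshold of 138.

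The other loci were single regions. On chromosome 10, chr10:453730-453846 (height 177, enrichment 7.21) lay between higher shared peaks of 242 and 235, with enrichments of 3.2 and 2.4. It was 122 bp from the nearest stressed Sko1 peak and overlapped a Sko1 peak of mock-treated cells that was 2 bp wide. That Sko1 peak had a height of 82, at a threshold of 81, and yet an enrichment of 4.68. On chromosome 7, chr7:422974-423078 had an enrichment of 4.07 and a height of 167, 114 bp from a stressed Sko1 peak. It overlapped the mock-treated Sko1 peak chr7:423056-423064, with a height of 107 (threshold 103, enrichment 3.47). Also on chromosome 7, chr7:930932-931081 had an enrichment of 4.85 and a height of 144. This last region was the farthest from any stressed Sko1 peak, at 24886 bp, and overlapped a mock-treated Sko1 peak of 126 (threshold 81, enrichment 4.01) over most of its length. It lies in a stretch of chromosome 7 that is taken up further on.

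High regions were not always highly enriched ones. The region chr8:556399-556665 was the third by height, with 227 at a threshold of 89, but its enrichment was 2.04, and a shared peak of nearly equal height (225, enrichment 2.88) lay next to it over a stressed Sko1 peak of 635. The region chr11:380486-380681 had a height of 191 and an enrichment of 1.40. Conversely, chr2:372066-372255 had an enrichment of 3.66 at a height of 150, and chr7:978058-978168 one of 3.12 at a height of 120, the 3453rd of all wide peaks by height.

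**Figure D2:**
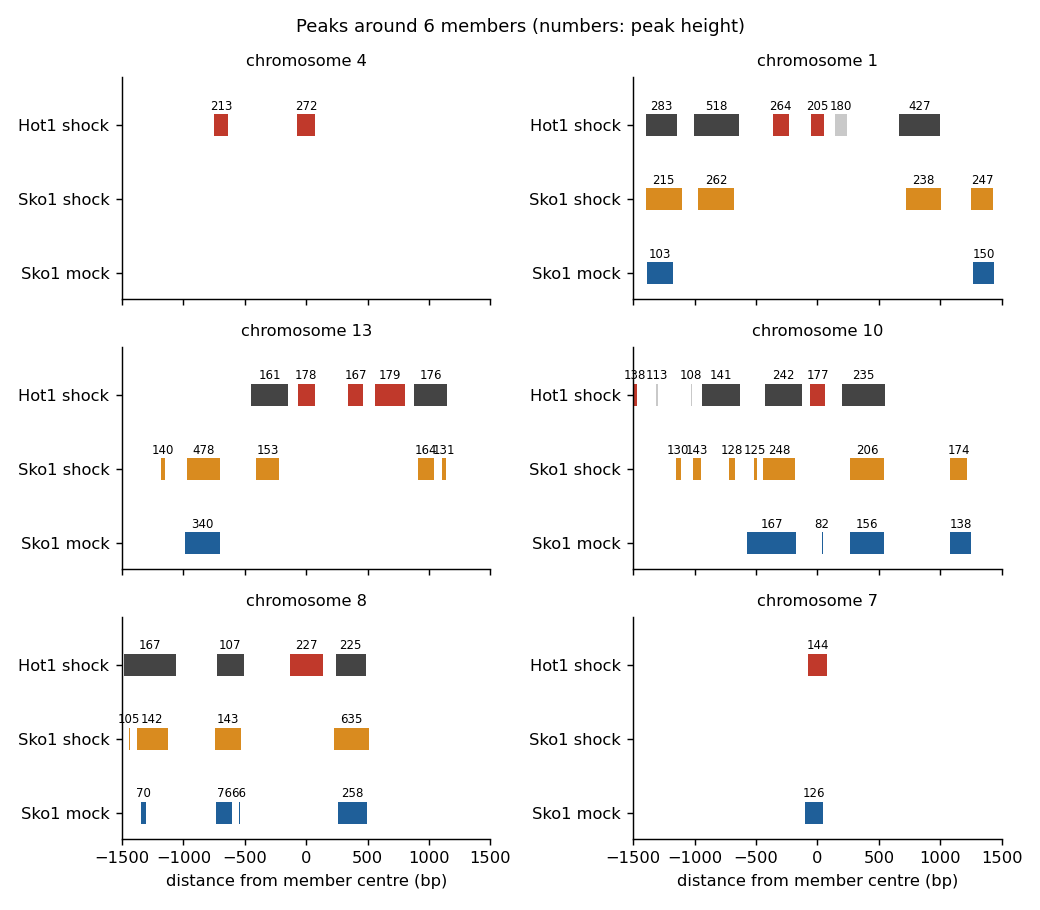
Peaks of the 3 lists around 6 regions without a stressed Sko1 peak, as bars along the distance from the centre of the region (bp). Hot1 peaks without Sko1 are red, shared Hot1 peaks dark, Hot1 peaks under 100 bp light grey, stressed Sko1 peaks orange and mock-treated Sko1 peaks blue, with the peak height over each bar. The regions on chromosomes 1, 13, 10 and 8 stand among shared Hot1 peaks, and those on chromosomes 4 and 7 do not.

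The distance from a region to the nearest stressed Sko1 peak, where 1 means adjoining intervals, had a median of 286 bp and quartiles of 115 and 691 bp. It was at most 50 bp in 157 of the 1186 regions and at most 250 bp in 550, and it was over 1000 bp in 189. The list of 12149 stressed Sko1 peaks is dense, with a median of 402 bp from one peak to the next, and distances of this size are not read as particular to the regions. The stressed Sko1 peak nearest to a region had a median width of 54 bp and a median height of 1.09 times its threshold, beside 70 bp and 1.11 times for all stressed Sko1 peaks. The nearest of the 3749 shared Hot1 peaks, a shorter list, lay at a median of 943 bp, and within 250 bp in 220 regions. Only 23 regions were over 5000 bp from any stressed Sko1 peak. Of these, 17 were in one stretch of chromosome 7, and the other 6, among them chr7:453012-453204 at 9281 bp and chr12:273328-273439 at 7435 bp, had heights between 108 and 151 and enrichments between 1.13 and 1.97.

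**Figure D3:**
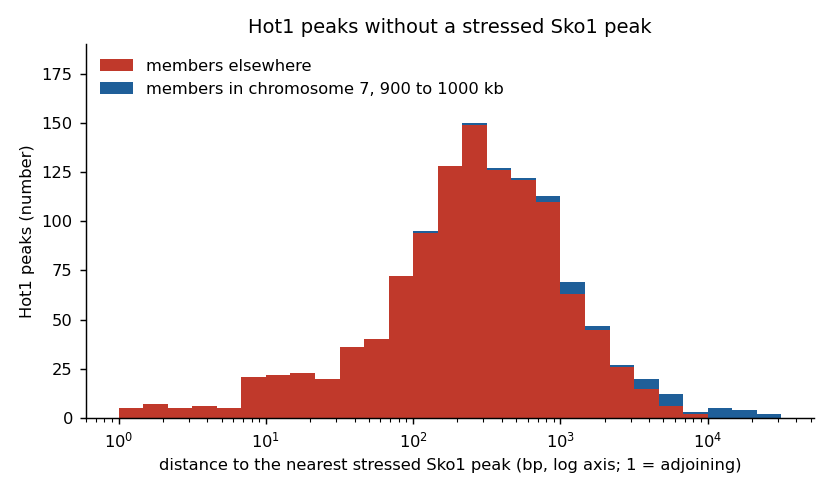
Number of Hot1 peaks without a stressed Sko1 peak by their distance to the nearest stressed Sko1 peak (bp, log axis, 1 = adjoining), with those of chromosome 7 from 900 to 1000 kb in blue. The median is 286 bp, and 17 of the 23 regions beyond 5000 bp are blue.

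The regions were spread over the genome, mostly singly. Each of the 16 nuclear chromosomes held between 23 (chromosome 1) and 148 (chromosome 4) of them. The share of a chromosome's wide Hot1 peaks that had no Sko1 peak was lowest on chromosome 8, with 42 of 231 (18.2%), and highest on chromosome 9, with 73 of 210 (34.8%), followed by chromosome 13 with 116 of 376 (30.9%). The sequence that the lists number 17 held 32 wide Hot1 peaks, none of them without Sko1. Where regions no more than 500 bp apart were joined, 922 stood alone, 90 runs held 2, 21 held 3 and 5 held at least 4. The longest run by number was chr13:303978-305419, with 5 regions of heights between 116 and 147 and enrichments of at most 1.52, and the longest by length chr7:970361-973616, with 4 regions over 3256 bp and heights up to 173.

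A single stretch, chromosome 7 from 900 to 1000 kb, departed from the rest. There, 39 of 44 wide Hot1 peaks (88.6%) had no stressed Sko1 peak. The 10 nuclear stretches with a share of at least 40%, of 119 stretches with at least 20 wide Hot1 peaks, included this one, and the next highest reached 50.0%, as on chromosome 9 from 300 to 400 kb with 29 of 58. The median of the 119 was 23.1%. The Hot1 threshold of the stretch, 100, was ordinary. The stressed Sko1 threshold was 243, beside a median of 120 over stretches, and only 8 stressed Sko1 peaks were listed, beside a median of 100. The mock-treated Sko1 list had a threshold of 81 there, beside a median of 75 over nuclear stretches, and 48 peaks.

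The stretch also held the highest peak of the stressed Sko1 list, chr7:955967-956340, with a height of 65594. The second highest of that list was 14044. Neither of the other lists had a peak on it: the nearest Hot1 peak was 1131 bp away with a height of 116, and the nearest mock-treated Sko1 peak 3049 bp away with a height of 122. Of the 48 mock-treated Sko1 peaks of the stretch, 6 (12.5%) shared a base with a stressed Sko1 peak, against 6241 of 7167 elsewhere (87.1%). This share does not involve Hot1, but with so few stressed Sko1 peaks listed in the stretch a low value follows. It describes the short list again and is not a separate result. The part of the threshold in the count of regions without Sko1 was not tested by calling peaks again.

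The enrichment of the 39 regions of the stretch was somewhat above that of the regions on the rest of chromosome 7, where ratios were high as well. It ran from 1.41 to 4.85 with a median of 2.14, and 27 of 39 (69.2%) reached 2, while the 76 regions on the rest of chromosome 7 had a median of 1.98 and 37 of them (48.7%) reached 2. Median height was 127 in the stretch and 122 in the 1147 regions elsewhere in the genome, and median width 193 and 139 bp. The 2 widest of all regions without Sko1 lie here. The region chr7:906354-908165 was 1812 bp wide with a height of 157 and an enrichment of 2.12, and chr7:972164-973616 was 1453 bp wide with a height of 173 and an enrichment of 2.48. The widest elsewhere was chr5:40313-41489, at 1177 bp, with a height of 158 and an enrichment of 2.10 and 742 bp from a stressed Sko1 peak.

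A gene can be named in this stretch, FMP43, which encodes a subunit of the mitochondrial pyruvate carrier. The study's supplement places a match to its Hot1 motif in the FMP43 promoter, and that position falls between the region chr7:976170-976494, with a height of 136 and an enrichment of 1.65, and the shared peak chr7:976929-977245, with a height of 203 and an enrichment of 6.38. The supplement's positions were read as positions on the assembly of the lists, which it does not state.

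**Figure D4:**
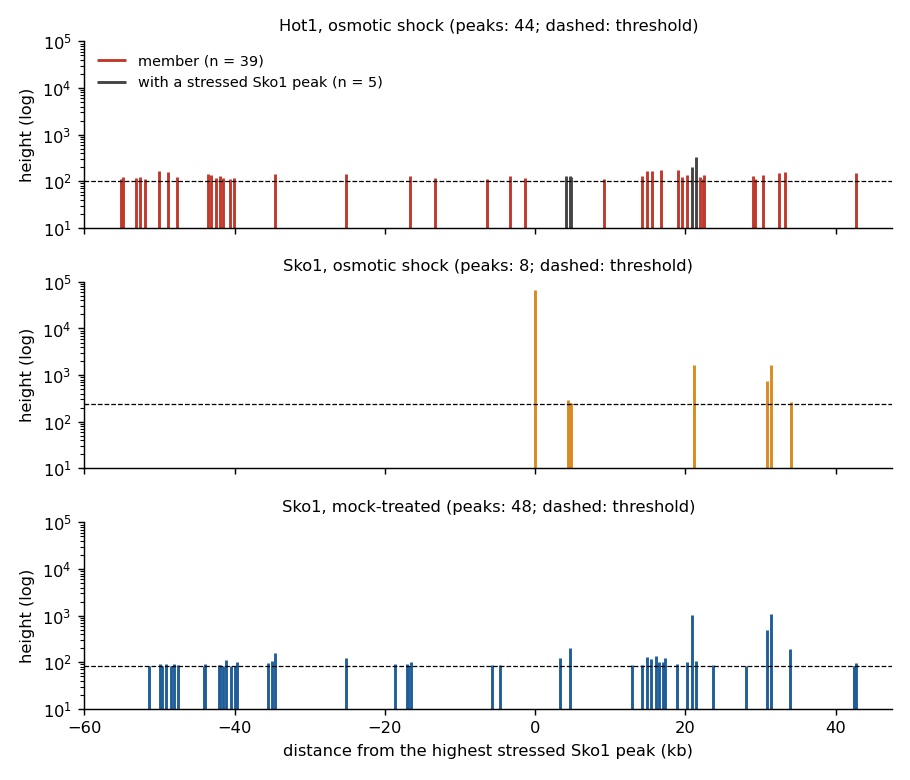
Peak heights (log axis) of the 3 lists in chromosome 7 from 900 to 1000 kb, by distance in kb from the highest stressed Sko1 peak, with the threshold of each list as a dashed line. The stressed Sko1 list has 8 peaks over a threshold of 243, whereas the mock-treated Sko1 list has 48 over 81 and Hot1 44 wide peaks over 100, of which 39 (red) have no stressed Sko1 peak.

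Over the other stretches the share without Sko1 also moved with the thresholds. In the 852 wide Hot1 peaks of nuclear stretches where the Sko1 threshold was under 1.15 times that of Hot1, 155 (18.2%) had no stressed Sko1 peak. The share was 21.4% (429 of 2000) for a ratio from 1.15 to 1.2, 23.7% (261 of 1101) from 1.2 to 1.25, 30.2% (188 of 622) from 1.25 to 1.3 and 40.3% (114 of 283) from 1.3 to 1.4. Across the 119 stretches, the share and the ratio of thresholds had a Pearson r of 0.693 and a Spearman rho of 0.449. Without the stretch of chromosome 7 these were 0.581 and 0.435 over 118 stretches. The points share the same libraries, are not independent samples and were given no p-value. The sequence numbered 17, which is not among them, went the other way, with a ratio of 2.30 and no region without Sko1. With the Hot1 threshold alone, the share had an r of 0.163 and a rho of 0.150.

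**Figure D5:**
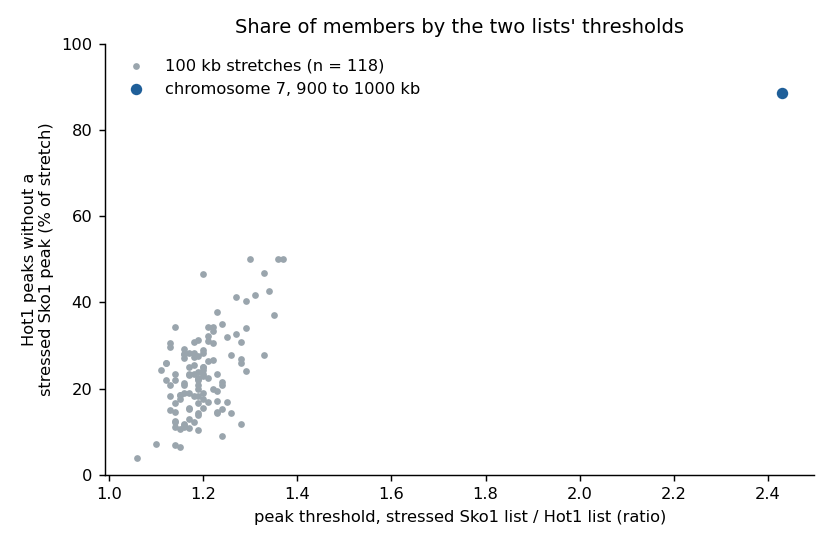
Percent of the wide Hot1 peaks of a 100 kb stretch that have no stressed Sko1 peak (y axis) against the stressed Sko1 threshold divided by the Hot1 threshold (x axis), for 119 nuclear stretches with at least 20 wide Hot1 peaks. The stretch of chromosome 7 from 900 to 1000 kb (blue) is at 2.43 and 88.6%, and the others end at 50.0%.

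Sko1 in mock-treated cells was the measure that the choice of regions did not use, although it comes from the same tagged strain as the stressed Sko1 list. A mock-treated Sko1 peak lay on 61 of the 1186 regions (5.14%), on 50.2% of all 4935 wide Hot1 peaks and on 2414 of 3749 shared peaks (64.4%). The order was the same in each class of width: 4.75% and 52.1% at 100 to 149 bp, 3.61% and 62.7% at 150 to 199 bp, 4.09% and 66.4% at 200 to 299 bp, and 18.8% and 76.5% from 300 bp on. In reverse, 72 of the 7215 mock-treated Sko1 peaks (0.998%) touched a region without stressed Sko1, and 2779 (38.5%) touched a shared peak. Most mock-treated Sko1 peaks, 6247 of 7215 (86.6%), lay on a stressed Sko1 peak, so that few were left to fall on the regions. Of all 4935 wide Hot1 peaks, the same 61 were those with a mock-treated but no stressed Sko1 peak.

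The 72 mock-treated Sko1 peaks on the regions were small. Their median width was 29.5 bp, beside 64 bp over the whole list, their heights ran from 69 to 157, and the median height was 1.05 times the threshold, beside 1.11 over the list. Of the 61 regions that bear them, 17 were in the stretch of chromosome 7, where 17 of 39 regions (43.6%) had a mock-treated Sko1 peak, and without that stretch the count was 44 of 1147 (3.84%). In the stretch, the share among all 44 wide Hot1 peaks was 50.0%, close to the 50.2% of all wide Hot1 peaks. The 61 regions had a median height of 126 and a median enrichment of 1.56, against 122 and 1.42 in the other 1125, and without the stretch of chromosome 7 the remaining 44 had 123 and 1.44.

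Gene names could be set beside the Hot1 peaks only through the positions that the study's supplement lists for its Hot1 motif near selected genes. Of 26 listed positions, 17 fell in wide Hot1 peaks, which were 14 different peaks, and all 14 were shared peaks. Among all wide Hot1 peaks 24.0% were without Sko1, but only 5.88% in the highest of the 5 height classes and 7.92% among the 101 most enriched. The study chose the listed genes on its Hog1 libraries. It reports Sko1 at nearly all promoters of the ORFs that Hog1 occupied, so that shared peaks were likely in advance. The motif itself was found in Hot1 peaks of the library used here, and the count is a description only. The 14 peaks had heights from 124 to 2360 (median 311) and enrichments from 2.00 to 12.6 (median 5.29). At GPD1, the glycerol-3-phosphate dehydrogenase gene of glycerol synthesis, the promoter peak chr4:410703-413026 had a height of 2360. At STL1, which encodes a glycerol importer of the plasma membrane, the peak chr4:1506965-1507683 had a height of 1265, and at RHR2, a glycerol-3-phosphatase gene, chr9:254315-254665 had one of 430. These exceed the highest region without Sko1, at 272. The peaks at CTT1, the gene of cytosolic catalase, with heights of 140 and 148, and at HOR7, with 124, were within the range of the regions without Sko1.

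The rule has 2 limits, and the peaks at either side of each had like values. At the limit of width, the narrowest regions, 19 of exactly 100 bp, included chr13:695880-695979 with a height of 132, chr15:225888-225987 with 131 and chr15:1070074-1070173 with 130, and their enrichments were 1.32, 1.20 and 1.28. Just outside it, 24 Hot1 peaks of 99 bp without Sko1 included chr8:246921-247019 with a height of 145, chr10:462886-462984 with 137 and chr14:643261-643359 with 137. At the limit of overlap, 5 regions adjoined a stressed Sko1 peak without sharing a base. Among them were chr3:26079-26242, with a height of 133, chr15:58327-58444, with 124 beside a Sko1 peak of 1 bp, and chr15:802111-802214, with 119. On the other side, 44 shared peaks had only 1 base in common with stressed Sko1 peaks, such as chr12:1013513-1013724 with a height of 151. Shared peaks in general were covered by stressed Sko1 peaks over a median of 64.4% of their length.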

How the data were processed

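The authors aligned reads with Bowtie to sacCer2 by the submitters' notes, and with ELAND by the supplement, with no version given in the sources used here, and called peaks on each library with an implementation of PeakSeq. Each deposited peak has its position, a height and a threshold as a signal, an enrichment as a ratio and a p-value, together with a column headed q-value that was treated as a score because some entries exceed 1. The unit of height and the scaling of the ratio are not given in the lists. The study screened its peaks further against input and analysed the 100 of highest enrichment. The lists do not mark the peaks that it kept, so that the regions described here are listed peaks without that screen. The series also holds mock IP libraries of wild-type cells, which were not used here. Background of the precipitation that the Hot1 and Sko1 lists may share was therefore not assessed.

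Intervals were compared with 1 shared base as overlap (Python 3.11.15, pandas 2.3.3, numpy 2.4.6, scipy 1.17.1), tested on simulated intervals and checked with bedtools 2.31.1. Stretches are 100 kb by peak midpoint. Named regions are the 10 highest, the 10 most enriched, the 3 at each limit, and others named after their values were seen (the widest, the farthest, those of runs and framing peaks). The members and lists were chosen with earlier results of these data known. No genome or annotation of sacCer2 was at hand, so that peaks were not assigned to genes, the planned Hog1, Rpb3, gene list and motif results were not run, and the tables of ORFs, promoters and downstream regions were not used here. No p-value was computed because each condition has 1 library.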

Additional observations from a re-analysis of the deposited data

How the results depend on the processing

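No paired analysis was possible because each condition has 1 library, and leaving out a replicate was not possible for the same reason. The alternatives on Hog1 and Rpb3 were not run, as peaks could not be placed on genes. The number of Hot1 peaks without a stressed Sko1 peak, 1186, depended on the definition: it was 6134 with no minimum width, 512 and 235 with a minimum of 150 and 200 bp, 636 when a stressed Sko1 peak within 250 bp counted as shared, 2668 when a Sko1 peak had to cover at least 0.5 of the Hot1 peak, 2423 when the Sko1 peak itself had to be at least 100 bp wide, 8 among the 100 most enriched Hot1 peaks and 407 among those at or above the median height. In 6 other settings it stayed between 875 and 1147. The sets counted differ in size: the 6134 are of 12548 Hot1 peaks of any width, and the 1186 are of 4935. The share without Sko1 was 65.0% under 100 bp and 38.1% at 100 to 149 bp. It was 27.5% at 150 to 199 bp, 16.5% at 200 to 299 bp and 5.71% from 300 bp on. The share with a mock-treated Sko1 peak, 5.14%, became 3.15% with no minimum width, 8.09% from 200 bp on, 21.96% and 17.5% under the stricter rules on Sko1 cover and Sko1 width, 37.5% (3 of 8) among the 100 most enriched, 6.88% at or above the median height, 8.01% when a mock-treated peak within 50 bp counted, 0.759% when it had to cover at least 0.5 of the Hot1 peak, 3.84% without chromosome 7 from 900 to 1000 kb, and 3.92% without the whole of chromosome 7. Median height moved only among the 100 most enriched, to 191.5, as did median enrichment, to 5.265. Median width was 53 bp with no minimum width and 247 bp from 200 bp on. The 8.09% from 200 bp on includes the wide regions of the chromosome 7 stretch and was not computed without them. Leaving out the stretch of chromosome 7 or the whole chromosome (1071 regions), leaving out stretches with a Sko1 threshold at least 1.3 times that of Hot1 (1004 regions), and counting Sko1 peaks of both treatments (1125 regions) were chosen after the data were seen. Without read totals per library, the lack of a Sko1 peak cannot be set against the depth of its list.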
